A study of Sus scrofa with 6 samples.

Results

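The subject here is the unperturbed transcriptome of porcine oocytes, as given by the 2 control samples of a series of 6. Both control samples were chosen by their treatment label. The other 4 samples were oocytes under heat stress or under heat stress with nicotinamide mononucleotide (NMN), a precursor of NAD+, and they enter no result below. The labels give the stage GV (germinal vesicle, the immature stage) and 24 hours for every sample, whereas the study's methods describe collection of oocytes at metaphase II, so the stage of the sequenced oocytes is uncertain. The oocytes came from abattoir ovaries, were matured in vitro inside their cumulus-oocyte complexes and were pooled before RNA extraction. Control oocytes had neither the heat nor the NMN. Nothing states that the 2 control samples came from separate collections of ovaries, so the spread between them may be technical, and with 2 samples of one group no test was made.

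A growing oocyte transcribes heavily and then falls silent, and it stores the mRNAs that meiosis and the first cleavages will use. Many stored mRNAs are held with a short poly(A) tail and are translated or degraded on a schedule. The oocyte also carries a very large number of mitochondria, whose own genome is transcribed into a handful of polyadenylated mRNAs for the respiratory chain, and it relies on its cumulus cells for much of its glycolysis. What such a cell holds in abundance therefore differs from the profile of a dividing somatic cell.

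Expression was deposited as FPKM, the number of sequenced fragments scaled by transcript length and by how many fragments a sample had mapped, which allows levels of different genes to be compared per length within a sample. FPKM is a relative measure, and the amount of RNA per oocyte cannot be told apart from it. Of 29848 nuclear genes listed, 15446 were above 0 in both control samples, 3289 in one of them, and 11113 (37.2%) were listed at 0 in both. A mean of at least 1 FPKM was reached by 4848 nuclear genes, which is 16.2% of those listed and 25.9% of the 18735 above 0 in either sample. A mean of at least 10 FPKM was reached by 892 genes, of at least 100 FPKM by 72 and of at least 1000 FPKM by 4. The nuclear genes above 0 had a median of 0.221 FPKM. The number of fragments behind these values is not given. Among 4775 genes under 0.15 FPKM in both samples, the most frequent ratio of replicate 2 to replicate 1 was 0.865, shared by 148 genes within a bin of 0.01 on the log2 scale. A ratio under 1 would be given by a larger number of fragments in replicate 2, but fragment counts were not used here and the depth of both samples is unknown.

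The labelled cell type was checked first. The 22 oocyte markers were all above 0 in both samples, 19 had a mean of at least 1 FPKM and 12 of at least 10 FPKM, and their median was 15.7 FPKM. Their FPKM summed to 3674 in replicate 1 and 3905 in replicate 2. FIGLA, KIT and DDX4, which act mainly before or during follicle formation and growth, were the 3 members under 1 FPKM and were picked after seeing their levels. Markers of cumulus or granulosa cells summed to only 4.18 and 3.88 FPKM over the 19 analysed. Of these 19 genes, 1 reached 1 FPKM and 7 were listed at 0 in both samples, among them INHA, AMH, PTX3, CD44 and PTGS2, which were picked after seeing their levels. KITLG, the ligand of the oocyte's KIT receptor, was the highest at 2.25 and 2.02 FPKM. SERPINE2, a secreted protease inhibitor, had 0.764 and 1.08 FPKM. CYP19A1, the aromatase, had 0.160 and 0.455 FPKM and VCAN, a matrix proteoglycan of the expanding cumulus, had 0.143 and 0.153 FPKM. The summed oocyte markers exceeded the summed cumulus or granulosa markers 940-fold. BMP15, MOS and GDF9, with means of 1626, 888 and 754 FPKM, held most of the oocyte sum, which was 3789 FPKM by the means. The list medians were 15.7 FPKM for the oocyte markers and 0.0355 FPKM for the cumulus or granulosa markers. Of 14 markers of blood, immune, stromal or endothelial cells, 9 were listed at 0 in both samples and 0 reached 1 FPKM, with sums of 0.939 and 0.909 FPKM. The highest were CD68 of macrophages (0.381 and 0.439 FPKM), the collagen gene COL1A2 (0.205 and 0.276 FPKM), PECAM1 of endothelium (0.270 and 0.173 FPKM) and the proteoglycan gene DCN (0.0770 and 0.0214 FPKM). The haemoglobin gene HBB, chosen after its value was seen, was listed at 0 in both.

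Mitochondrially encoded mRNAs dominated both samples. The 13 protein-coding genes of the mitochondrial genome took 66.4% of the FPKM sum in replicate 1 and 61.7% in replicate 2 (64.0% ± 3.28, SD, n = 2). The highest was ATP6, a subunit of the proton channel of ATP synthase, at 22684 and 23490 FPKM, 14.2 times the mean of the highest nuclear protein-coding gene. COX1, the catalytic core of cytochrome c oxidase, followed with 18282 and 18487 FPKM, and COX3 of the same complex with 16210 and 17368 FPKM. These 3 took 48.2% and 58.7% of the mitochondrial sum. By the mean of both samples, 12 of the 13 genes lay above every named nuclear protein-coding gene, and ND4L was the exception. Single samples differed from this. In replicate 1 ND4L, at 1941 FPKM, also lay above the highest such gene, UBB at 1650 FPKM. In replicate 2 ND1 (1464 FPKM) and ND5 (1420 FPKM) lay under BMP15 (1646 FPKM) as well. COX1 exceeded ND6, the one subunit read from the opposite strand of the mitochondrial genome, 9.35-fold by the mean. ND6 was not the lowest, since ND5, ND1 and ND4L of the same strand as COX1 had lower means. These were 1905, 1711 and 1367 FPKM, against 1966 FPKM for ND6.

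The 2 samples did not agree equally well over the mitochondrial genes. ATP6, COX1 and COX3 differed little, with ratios of replicate 2 to replicate 1 of 1.04, 1.01 and 1.07. ATP8, a small ATP synthase subunit, stood at 14941 FPKM in replicate 1 and 4007 FPKM in replicate 2, a ratio of 0.268. ND4L, a small subunit of complex I, stood at 1941 and 794 FPKM, a ratio of 0.409. These are the shortest of the 13 genes as annotated, of 204 and 297 nt, and each overlaps a longer gene at the same listed locus. The lengths are those of the annotated genes, and the lengths of the mRNAs that carry them were not measured. ATP8 and ND4L were singled out after their values were seen. Among the other 11 genes the ratio ranged from 0.594 to 1.27. Over these the Spearman correlation of annotated gene length with the size of the log2 ratio was 0.218, against −0.264 over all 13. Without ATP8 the mitochondrial share was 63.3% and 60.8%. Whether gene length plays a part in the disagreement was not tested.

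**Figure D1:**
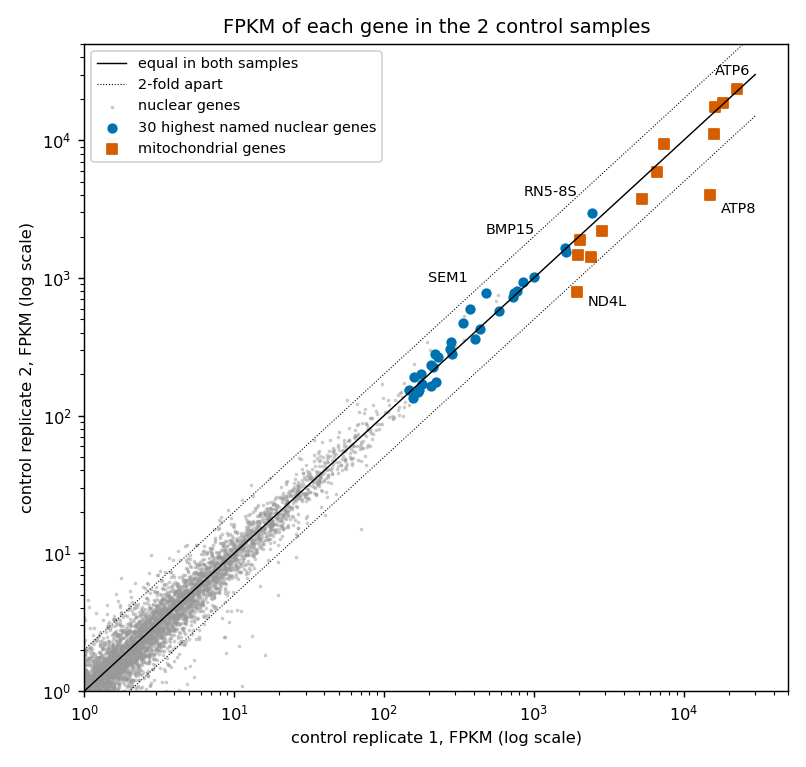
FPKM of each gene in control replicate 1 (x axis) and control replicate 2 (y axis), both on log scales, for nuclear genes with a mean of at least 1 FPKM (grey), the 30 highest named nuclear genes (blue circles) and the 13 mitochondrial genes (orange squares); values under 1 FPKM fall outside the axes. The solid line marks equal values and the dotted lines a 2-fold difference, and ATP8 and ND4L lie beyond the lower dotted line, at ratios of 0.268 and 0.409.

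The nuclear transcripts were ranked by the mean of both samples, counting as named every gene whose symbol is more than a database number. Such genes above 0 in both samples numbered 11860. The 50 highest of them took 29.9% of the nuclear FPKM sum in replicate 1 and 30.8% in replicate 2 (30.3% ± 0.605, SD, n = 2), and the 10 highest took 18.0% and 18.8%. Those of the 30 highest that are reported here are described by role.

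Oocyte-secreted growth factors stood near the top. BMP15, a member of the TGF-beta family that the oocyte sends to its granulosa cells, had 1606 and 1646 FPKM and was the highest protein-coding nuclear gene. It lies on the X chromosome (44613122 to 44620575, Sscrofa11.1) and has 2 exons. GDF9, its relative and partner in the same signal, had 732 and 777 FPKM (chromosome 2, 135181494 to 135184451), so that BMP15 exceeded GDF9 2.16-fold. ID3, an inhibitor of basic helix-loop-helix transcription factors and in many cells a target of BMP signalling, had 1007 and 1021 FPKM (chromosome 6, 81422541 to 81424169). In each of these the samples were within 1.25 times of each other.

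Genes of meiosis and of chromosome handling were also among the 30. MOS, the kinase that switches on the MAPK pathway and holds the egg at metaphase II, had 845 and 932 FPKM and is a single-exon gene on chromosome 4 (75739402 to 75741076). CKS1B, a small subunit of cyclin-dependent kinases, had 178 and 201 FPKM. BOD1, which helps chromosomes attach to both spindle poles, had 205 and 235 FPKM. WEE2, the oocyte kinase that keeps CDK1 inactive during prophase arrest, had 157 and 134 FPKM. PCNA, the sliding clamp of DNA replication, had 274 and 302 FPKM.

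Genes of the ubiquitin system and of protein folding formed a further group. UBB, which encodes a string of ubiquitin units, had 1650 and 1551 FPKM (chromosome 12, 59171258 to 59172841), in a listed locus that 108 genes share. The row SEM1 is annotated as a long non-coding transcript of the locus of a proteasome subunit, and at 480 and 778 FPKM it was one of the least reproducible of the 30. HSP70.2, the inducible heat shock protein of 70 kDa, had 582 and 574 FPKM without any heat treatment (chromosome 7, 23925929 to 23927854). It belongs to a family of near-identical genes, which makes its own share uncertain.

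High levels were also reached by genes of RNA binding, translation and maternal mRNA handling. PCBP1, which binds C-rich RNA, had 723 and 726 FPKM. EIF1, which guides the choice of the start codon, had 279 and 342 FPKM. KHDC3L of the subcortical maternal complex had 211 and 226 FPKM. DPPA5, an RNA-binding protein of pluripotent cells, had 158 and 190 FPKM, and ZAR1L, a relative of the maternal mRNA-binding protein ZAR1, had 148 and 154 FPKM. KHDC3L and DPPA5 are neighbours on chromosome 1 (52996706 to 52999074 and 52986462 to 52987596).

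The other genes of the 30 serve varied functions. HILPDA, which blocks lipolysis at lipid droplets, had 774 and 811 FPKM (chromosome 18, 19944929 to 19947080). FTL, the light chain of the iron store ferritin, had 338 and 469 FPKM. RRAGA, a GTPase that reports amino acids to mTORC1, had 407 and 358 FPKM. SEPHS2, which makes the selenium donor for selenoproteins, had 285 and 281 FPKM. PIM3, a growth-promoting kinase, had 170 and 149 FPKM. TOMM6, a small subunit of the mitochondrial import channel, had 178 and 169 FPKM. THAP11, a zinc-finger transcription factor of early embryos, had 437 and 424 FPKM. The stress-inducible gene IER3 had 228 and 268 FPKM. DYNLL1, a light chain of dynein, had 218 and 281 FPKM. KBTBD13, an adaptor of a ubiquitin ligase known from muscle, had 222 and 175 FPKM.

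Also among the 30 are 2 ribosomal RNAs. RN5-8S, the 5.8S rRNA, had 2441 and 2986 FPKM over 156 nt, and RN18S, the 18S rRNA, had 375 and 597 FPKM. According to the labels mRNA was purified from the total RNA, and rRNA rows took 4.69% and 5.71% of the nuclear FPKM sum. RN18S was among the genes that differed most between the samples.

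**Figure D2:**
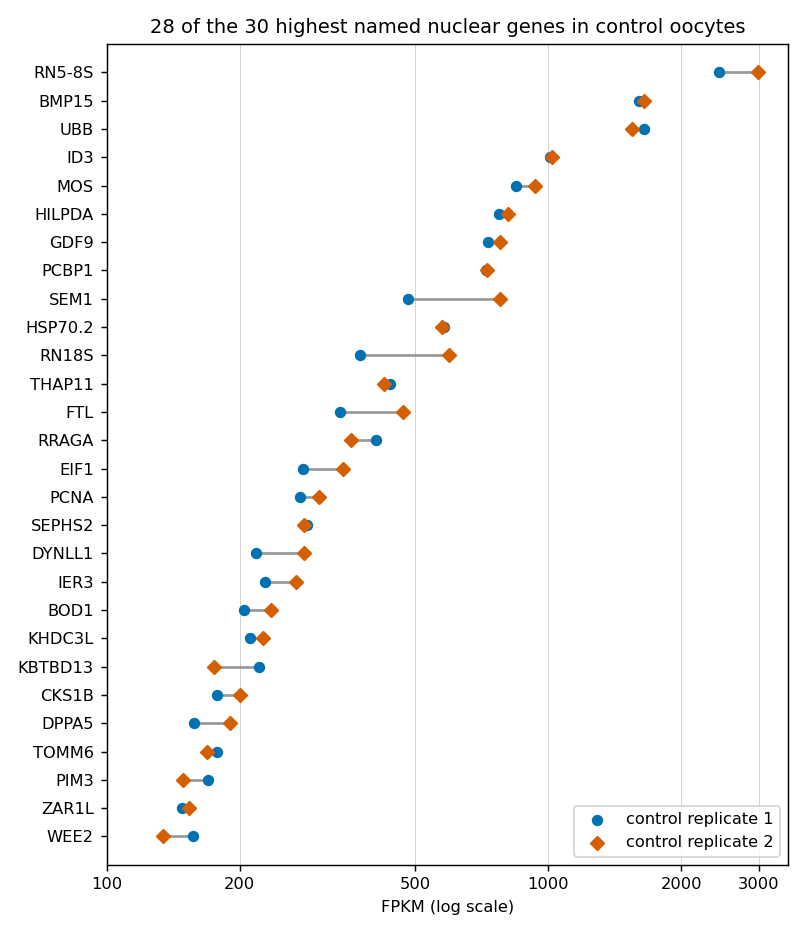
FPKM (log scale, x axis) of 28 of the 30 highest named nuclear genes in control replicate 1 (blue circles) and control replicate 2 (orange diamonds), with a grey line joining the samples of one gene and genes ordered by their mean. Only SEM1 and RN18S were more than 1.5-fold apart, while BMP15, ID3, PCBP1 and HSP70.2 nearly coincided.

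Agreement of the samples was close among the abundant genes. Of the 30 highest named genes, replicate 2 was within 1.25 times of replicate 1 in 24 and within 1.5 times in 28, with ratios from 0.792 to 1.62 and a median of 1.04. Of the 200 highest, 158 were within 1.25 times, 192 within 1.5 times and 200 within 2 times. The 5 with the largest log2 ratio (1 FPKM added) among these 200 were all higher in replicate 2. CCER2, a poorly known coiled-coil protein, had 33.9 and 66.3 FPKM, a log2 ratio of 0.95. SEM1 followed with a log2 ratio of 0.69, RN18S with 0.67, and TMSB4X, the actin-binding thymosin beta-4, with 0.64 (68.4 and 106.8 FPKM). NOP10, a subunit of the particles that pseudouridylate RNA, had 43.4 and 66.5 FPKM and a log2 ratio of 0.60. Across the 4848 nuclear genes with a mean of at least 1 FPKM, which are not independent of each other, the Spearman correlation of the samples was 0.903, and the SD of the log2 ratio was 0.408 around a median of −0.01. Within 2-fold of each other were 89.8% of the 1652 genes between 1 and 2 FPKM, 93.5% of the 1561 between 2 and 5, 96.2% of the 743 between 5 and 10, 98.1% of the 722 between 10 and 50, and 99.4% of the 170 above. With lower genes included the agreement was weaker. Within 2-fold were 80.8% of the 11818 genes of at least 0.1 FPKM and 64.4% of the 18735 above 0 in either sample. Genes at 0 in 1 sample counted as not within 2-fold. Among the 3289 genes above 0 in 1 sample, 30 had a mean of at least 1 FPKM and none exceeded 7.22 FPKM.

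Named genes were not the whole of the abundant fraction. Genes known by a database number took 22.2% and 23.0% of the nuclear sum, and 29 of them lay above the 50th named gene, which stood at 90.3 FPKM. Of these 29, 15 are annotated as protein-coding, 5 as long non-coding RNA, 5 as pseudogene and 3 as transcribed pseudogene, and 13 have a single exon. LOC110260131, an uncharacterized long non-coding RNA on chromosome 3, was the highest at 573 and 750 FPKM. LOC100512687, a pseudogene on chromosome 16, had 560 and 675 FPKM. LOC100519675 on chromosome 9, annotated as ribosomal protein L35a, had 342 and 528 FPKM. The pseudogenes LOC100620408 on chromosome 8 and LOC110260429 on chromosome 4 had 411 and 379 FPKM and 341 and 353 FPKM. Chosen after its value was seen, LOC100512212 on chromosome 2, annotated as oocyte-secreted protein 2, had 298 and 320 FPKM. Over all nuclear genes, rows annotated as pseudogene held 4.85% and 4.94% of the nuclear sum and transcribed pseudogenes 1.48% and 1.84%.

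Textbook housekeeping genes gave a different picture from the abundant oocyte genes. Of 38 such genes, all of them listed, 19 had a mean of at least 1 FPKM, 5 of at least 10 FPKM, and the median was 0.972 FPKM. For comparison, 26 of the 38 were above the median of all nuclear genes above 0. EEF1A1, the elongation factor that carries tRNA to the ribosome, had 106.6 and 106.2 FPKM. PPIA, a prolyl isomerase, had 36.8 and 42.9 FPKM. HSP90AB1, a constitutive chaperone, had 29.4 and 35.6 FPKM, and POLR2A, the large subunit of RNA polymerase II, had 13.4 and 9.53 FPKM. ACTB, chosen after its value was seen, had 2.56 and 2.81 FPKM.

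The 19 housekeeping genes under 1 FPKM included the usual references of expression studies. GAPDH, the glycolytic enzyme most often used for normalization, had 0.292 and 0.315 FPKM (chromosome 5), near the median of all nuclear genes above 0 (percentile 55.2), and EEF1A1 exceeded it 351-fold. Other enzymes of glycolysis were also in this group. TPI1 had 0.855 and 1.03 FPKM, PGK1 0.324 and 0.409 FPKM, GPI 0.235 and 0.187 FPKM and ENO1 0.112 and 0.220 FPKM. PKM, the last step of the pathway, had 0.114 and 0.0989 FPKM, and ALDOA, the common aldolase, had 0.00694 and 0.0120 FPKM. Among genes of other functions, the ribosomal proteins RPL13A and RPS18 had 0.242 and 0.339 FPKM and 0.252 and 0.109 FPKM. SDHA of complex II had 0.219 and 0.148 FPKM. B2M, the light chain of class I histocompatibility molecules, had 0.102 and 0.252 FPKM, and TFRC, the transferrin receptor, had 0.586 and 0.479 FPKM. GUSB, the lysosomal glucuronidase, was listed at 0 in both samples, which may be a failed estimate. Genes of membrane traffic and protein quality control were in the group too, namely VCP (0.606 and 0.988 FPKM), CHMP2A (0.763 and 0.785 FPKM), RAB7A (0.220 and 0.208 FPKM), EMC7 (0.165 and 0.187 FPKM) and REEP5 (0.0167 and 0.0454 FPKM). Of the 38 genes, 18 were under 1 FPKM in both samples, and TPI1 was under it by its mean only. RPL19, at 0.998 and 1.003 FPKM, lay just on the other side of 1 FPKM. Of the 19 genes, 11 have a listed locus of their own, and the others, GAPDH among them, share it with further genes.

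The gene lists of oocyte function had medians above the 0.221 FPKM of all nuclear genes above 0. So did other lists, such as the housekeeping genes (0.972 FPKM) and the cytosolic ribosomal proteins (1.21 FPKM). Of 42 genes of the meiotic cell cycle, 30 had a mean of at least 1 FPKM and 16 of at least 10 FPKM, with a median of 5.18 FPKM. After MOS, CKS1B and WEE2, the highest was CCNB1, the cyclin of CDK1, with 54.4 and 59.8 FPKM. The subcortical maternal complex and egg coat list had 12 of 14 genes at or above 1 FPKM and a median of 9.49 FPKM. Among these 14, the highest after KHDC3L was OOEP, a further member of the complex, with 73.3 and 104.1 FPKM. Next were ASTL, the protease that hardens the egg coat after fertilization (30.4 and 39.6 FPKM), and the coat protein gene ZP3 (24.7 and 26.3 FPKM). ZP1, OOSP1 and OOSP2 of the list had no row under the symbols searched. LOC100512212, annotated as oocyte-secreted protein 2, was not counted in the list and at 298 and 320 FPKM lay above KHDC3L. Of 43 genes of maternal mRNA storage and decay, 24 reached 1 FPKM, and the median was 1.70 FPKM. Behind ZAR1L came the oocyte cap-binding protein EIF4E1B with 58.1 and 66.6 FPKM, BTG4, which brings the deadenylase to maternal mRNAs, with 42.9 and 55.3 FPKM, and ZAR1 with 17.3 and 23.8 FPKM. Histones and histone chaperones had 15 of 17 genes at or above 1 FPKM and a median of 14.6 FPKM. Among these 17, the oocyte linker histone H1FOO led with 97.9 and 134.8 FPKM. The histone chaperone SET (81.0 and 96.0 FPKM), the chromatin protein HMGB2 (71.5 and 88.4 FPKM) and ASF1B (33.8 and 33.6 FPKM) followed. Another 7 listed genes had no row under the symbols searched. Outside the 17, LOC100521680, annotated as histone H3.3, had 177 and 181 FPKM. LOC100522201, annotated as histone H2AX, had 82.4 and 95.5 FPKM. Both were chosen after their values were seen.

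Chaperones were likewise high. Of 26 such genes, 21 had at least 1 FPKM and 11 at least 10 FPKM, and the median was 5.05 FPKM. Highest among these 26 were HSP90AA1 (60.0 and 57.5 FPKM) and DNAJA1, a partner of the HSP70 proteins (54.6 and 55.4 FPKM). HSPE1 of mitochondria had 44.8 and 48.0 FPKM, and HSPA5 of the endoplasmic reticulum had 41.6 and 48.4 FPKM. HSPA1A and HSPA1B of the list had no row under the symbols searched. HSP70.2, annotated as heat shock 70 kDa protein 1B, was not counted in the list and was higher, at 582 and 574 FPKM. Of 44 genes of ubiquitin and proteasome, 28 reached 1 FPKM, with a median of 1.58 FPKM. High in this list beside UBB were UBE2C, the ubiquitin-conjugating enzyme of the anaphase-promoting complex (30.4 and 36.6 FPKM), and UCHL1, a deubiquitinase (25.9 and 37.4 FPKM). Tubulins and actins were uneven, with 8 of 15 genes at or above 1 FPKM. Their median was 0.892 FPKM in replicate 1 and 2.54 FPKM in replicate 2. TUBA1B had 108.4 and 119.7 FPKM, TUBA1A had 30.1 and 27.4 FPKM and TUBB4B had 13.4 and 25.9 FPKM. The cytoplasmic actin ACTG1 had 81.7 and 74.6 FPKM and exceeded its close relative ACTB 29.2-fold.

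The 2 lists of energy metabolism encoded in the nucleus had lower medians than the lists of oocyte function. Of 20 glycolysis genes 3 reached 1 FPKM, and the median was 0.136 FPKM, under that of all nuclear genes above 0. The highest were the aldolase ALDOC (1.86 and 1.97 FPKM), the lactate dehydrogenases LDHA (1.31 and 2.01 FPKM) and LDHB (0.909 and 1.30 FPKM), and TPI1. The row LDHB lies at an intronless locus on chromosome 2 whose other row, the pseudogene LOC407246, had 105.9 and 129.1 FPKM, so that this locus was split over 2 rows. That pseudogene was chosen after its value was seen. Of 63 nuclear subunits of the respiratory chain analysed, 22 reached 1 FPKM, and the median was 0.410 FPKM. This was above the 0.221 FPKM of all nuclear genes above 0, which 42 of the 63 exceeded. COX7C had 10.8 and 10.8 FPKM, NDUFA1 had 5.80 and 6.43 FPKM, UQCRB had 4.91 and 5.18 FPKM and NDUFA6 had 3.40 and 5.11 FPKM, all at least 100-fold under the mitochondrially encoded subunits of the same complexes. Another 12 genes of this list were not analysed here.

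**Figure D3:**
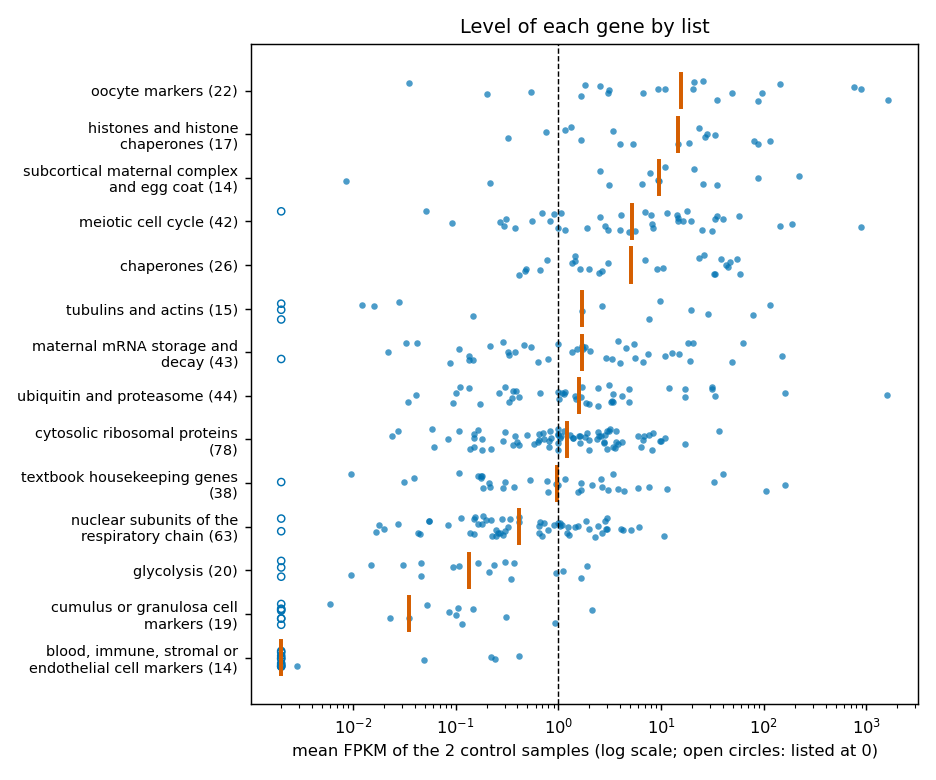
Mean FPKM of the 2 control samples (log scale, x axis) for each gene of the 14 lists (y axis, number of genes analysed in parentheses), with open circles at the left for genes listed at 0 in both samples, orange bars at the list medians and a dashed line at 1 FPKM. The medians run from 15.7 FPKM for the oocyte markers through 0.972 FPKM for the housekeeping genes to 0 for the markers of blood, immune, stromal or endothelial cells.

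The cytosolic ribosomal proteins, abundant in most growing cells, were modest here. Of 78 genes 43 reached 1 FPKM and 4 reached 10 FPKM, and the median was 1.21 FPKM. RPL15 was the highest with 39.8 and 33.5 FPKM, before RPLP1 (14.8 and 19.7 FPKM), RPL23A (11.01 and 10.8 FPKM) and RPS20 (10.996 and 9.06 FPKM). The 78 genes together took 0.356% and 0.372% of the nuclear FPKM sum. Several of the abundant unnamed rows, however, are intronless copies of ribosomal protein genes. The transcripts of all 3628 single-exon unnamed nuclear genes were therefore aligned to those of named multi-exon genes. A near-identical match, of at least 95% identity over at least 150 bases and 50% of the copy, was found for 93 of them, with 73 named genes. Of these copies 64 had a mean of at least 1 FPKM, and 45 of the 64 exceeded their gene in both samples. Over all 93 pairs the copy was higher in both samples in 46 and the gene in 30.

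The pairs described next were picked after seeing their levels, from those whose copy was among the highest. The named gene UBL5, a ubiquitin-like splicing factor of 5 exons on chromosome 2, had 0.690 and 1.33 FPKM, while its copy LOC100512687 had 560 and 675 FPKM at 98.9% identity. RPL35A, of 5 exons on chromosome 13, had 0.402 and 0.744 FPKM, against 342 and 528 FPKM for LOC100519675 at 99.3% identity. SUB1, a transcriptional coactivator gene on chromosome 16, had 0.594 and 1.02 FPKM, and its copy LOC100512195 on chromosome 15 had 135 and 174 FPKM at 99.8% identity. PPIA itself, at 36.8 and 42.9 FPKM, was exceeded by LOC100737553 on chromosome 1 with 226 and 234 FPKM at 98.2% identity. Of the 18 copies with a mean of at least 50 FPKM, 9 belonged to genes under 5 FPKM.

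The coding sequence around an exon junction is printed for some of these pairs. For each pair the junction with the fewest mismatches was taken, so the window does not measure how alike gene and copy are. Over the whole alignment identity was 98.9% (UBL5), 99.3% (RPL35A) and 98.2% (PPIA). In some other pairs even such a window held mismatches. In the lines below, lower case marks the last 30 coding bases of one exon and capitals the first 30 of the next exon of the gene, written from 5′ to 3′ and read from Sscrofa11.1. The same 60 bases stand in the copy without a mismatch and without a break.
UBL5 and LOC100512687: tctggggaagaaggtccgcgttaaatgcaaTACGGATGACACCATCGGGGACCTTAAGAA
RPL35A and LOC100519675: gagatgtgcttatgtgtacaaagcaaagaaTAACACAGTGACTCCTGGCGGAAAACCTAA
PPIA and LOC100737553: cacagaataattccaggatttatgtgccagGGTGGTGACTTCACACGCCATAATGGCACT
In the copies these windows lie at chr16:32332249-32332308 (minus strand), chr9:19765090-19765149 and chr1:203699389-203699448 (plus strand). In the genes an intron of 204 bases (UBL5), 896 bases (RPL35A) or 206 bases (PPIA) separates the parts. A fragment from such a stretch matches the copy without a gap and the gene with an intron to cross. From these values alone, transcripts of the gene and of the copy cannot be told apart.

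Ribosomal protein genes were compared with and without such a copy. Of the 78 genes, 23 have at least 1 copy that met these criteria and a median of 1.39 FPKM, and the 55 for which none was found had a median of 1.13 FPKM. The 27 copies of ribosomal protein genes had a median of 7.87 FPKM, and 17 of them exceeded their gene in both samples. Summed over their means, the copies reached 1427 FPKM and the 78 genes 224 FPKM. Of the 38 housekeeping genes PPIA alone has a copy by these criteria.

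**Figure D4:**
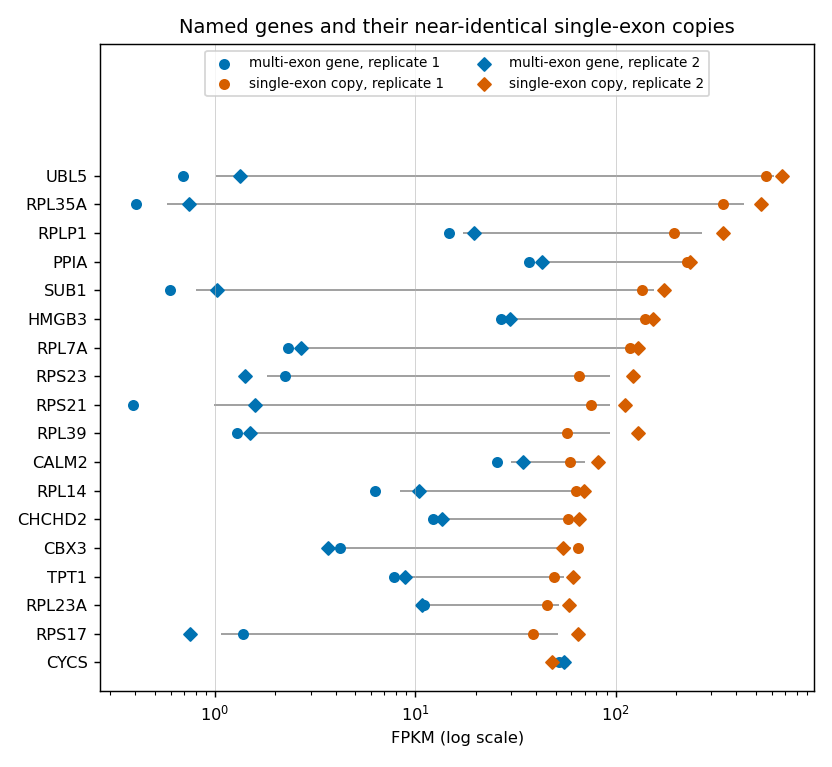
FPKM (log scale, x axis) of 18 named multi-exon genes (blue) and of their near-identical single-exon copies (orange) in control replicate 1 (circles) and replicate 2 (diamonds), for the copies with a mean of at least 50 FPKM, ordered by the level of the copy. All copies but that of CYCS lie above their gene in both samples, and for UBL5 and RPL35A the distance is widest.

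Abundant genes also had few exons. The 50 highest named protein-coding genes had a median of 3 exons (quartiles 2 and 4.75) in their longest RefSeq transcript, and 9 of the 50 (18.0%) have a single exon, among them MOS, PCBP1, HSP70.2, THAP11, RRAGA, SEPHS2, KBTBD13 and TOMM6. The median was 4 exons at ranks 51 to 200, 5 at ranks 201 to 500, 7 at ranks 1001 to 2000, and 11 beyond rank 4000. The share of single-exon genes was 13.3%, 4%, 2.80% and 0.693% in the same ranks. All 16492 named nuclear protein-coding genes listed had a median of 9 exons and 2.49% single-exon genes. Transcript length changed in the same direction, from a median of 1800 nt in the 50 highest genes to 4086 nt beyond rank 4000. Across the 3912 named protein-coding genes of at least 1 FPKM, the Spearman correlation of level was −0.257 with exon number and −0.167 with transcript length. Genes are not independent points, and FPKM is itself divided by length. Among the 19 housekeeping genes under 1 FPKM the median was 11 exons, against 7 in the other 19. Whether exon number plays a part in these levels was not tested.

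**Figure D5:**
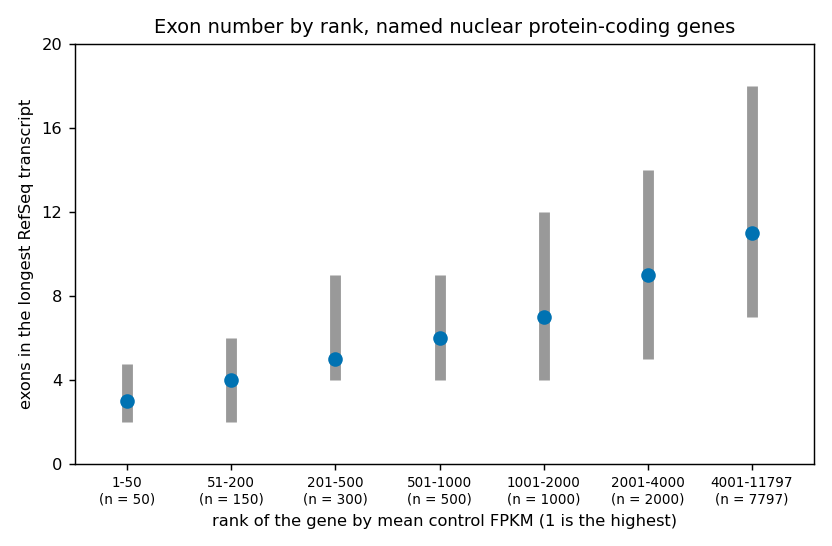
Exons in the longest RefSeq transcript (y axis) of named nuclear protein-coding genes, grouped by rank of mean control FPKM (x axis, 1 is the highest, number of genes in parentheses), with blue points at the median and grey bars from the lower to the upper quartile. The median goes from 3 exons in the 50 highest genes to 11 in the lowest group.

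The 3′ ends of the abundant transcripts were read because stored oocyte mRNAs are controlled through their tails. The lines below give the last 30 bases of the RefSeq transcript, with the polyadenylation signal AATAAA in capitals where these bases hold it.
BMP15: tgtgttgcaAATAAAtcatttttttgcgtt
UBB: ttAATAAAggttttgttgcatggtagtgta
ID3: acattttgcatAATAAAcggtttttaaaca
MOS: gtttttaaaaggaatgatactttaaatgat
ZAR1L: atagaatgaAATAAAtgcatgtgaaataga
These bases lie at chrX:44620546-44620575 and chr4:75741047-75741076 on the plus strand for BMP15 and MOS, and at chr12:59171258-59171287, chr6:81422541-81422570 and chr11:8795478-8795507 on the minus strand for UBB, ID3 and ZAR1L. In the last 100 bases, searched on the transcript strand only, AATAAA stood in 69.2% of the 39 searchable genes among the 50 highest named genes, in 69.1% of 3546 named genes of at least 1 FPKM and in 57.1% of 16647 nuclear protein-coding genes listed. TTTTAT, the core of the cytoplasmic polyadenylation element, stood in 20.5%, 19.0% and 13.2% of them. Among the 180 searchable genes of the 200 highest, AATAAA stood in 75.6% and TTTTAT in 20.6%. The variant signal ATTAAA stood in 30.8% of the 39 genes, 23.3% of the 180, 21.4% of the genes of at least 1 FPKM and 18.4% of those listed. No difference between these shares was tested. The models of GDF9, HSP70.2, THAP11 and TOMM6 hold no 3′ untranslated region and could not be searched.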

How the data were processed

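RNA was sequenced from porcine oocytes, and the 2 control samples were analysed. The authors deposited FPKM values for 29861 genes, made with Cufflinks 2.2.1, Cuffnorm and Cuffdiff per the submitters' processing notes, after trimming with cutadapt and alignment with tophat2. The deposited fold changes, p-values and q-values between groups and the lists made from them were not used. Fragment counts were not used, so the depth is unknown and no counting interval is given. All 29861 symbols matched the RefSeq annotation of Sscrofa11.1, and 29855 lay inside the listed locus. A listed locus was shared by 10245 genes. Genes were ranked by mean FPKM, with the 13 mitochondrial genes apart, and log2 ratios were taken after adding 1 FPKM. No test was made.

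Named were the 30 highest genes with a symbol that were above 0 in both samples, every housekeeping gene under 1 FPKM and the 5 highest, the 4 highest of each other list, the 5 most divergent of the 200 highest genes, the 5 highest unnamed and 3 highest mitochondrial genes. A few genes and a sequence that this rule covers are not reported here. The rule, the members and the 14 lists were chosen with earlier results of these data known. Copies were searched with blastn 2.17.0, and Python 3.11.15, pandas 2.3.3 and scipy 1.17.1 were used for the rest. The scripts for spread and ratios were tested on simulated data.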

Additional observations from a re-analysis of the deposited data

How the results depend on the processing

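No paired analysis was possible because one group of 2 samples was described and no test was made. Of the 50 highest named genes, 50 stayed among the 50 highest with a geometric mean or equal nuclear sums, and 47 and 48 when ranked by 1 sample. Once genes sharing a locus were left out 35 stayed, by construction, since 15 of the 50 share theirs. The 50 highest named genes took 39.3% of the FPKM sum of named nuclear genes only. The 4848 genes of at least 1 FPKM became 11818 at a minimum of 0.1 FPKM and 1635 at 5 FPKM. The Spearman correlation was 0.867 at a minimum of 0.1 FPKM, 0.912 at 5 FPKM and 0.845 without one. The SD of the log2 ratio was 0.659 with 0.1 FPKM added and 0.386 at a minimum of 5 FPKM. Housekeeping genes under 1 FPKM numbered 11 without shared loci, by construction, and 18 to 21 in single samples. List medians in single samples ranged from 14.0 to 15.5 FPKM for oocyte markers, 0.0108 to 0.0404 for cumulus or granulosa markers, 0.833 to 1.02 for housekeeping genes, 1.66 to 1.70 for mRNA storage and decay, 1.21 to 1.42 for ribosomal proteins, 0.113 to 0.143 for glycolysis, 0.390 to 0.416 for the respiratory chain, 0.892 to 2.54 for tubulins and actins (1.72 by the mean) and 1.35 to 1.53 for ubiquitin and proteasome. Adding copies and leaving out ATP8 were chosen after seeing the data, and the first could not change the count of low housekeeping genes, since PPIA, the one with a copy, was above 1 FPKM already. With 2 samples, low FPKM were the least reproducible.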
